A study of Mus musculus with 22 samples.

Results

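SOX and T-box genes encode 2 families of DNA-binding transcription factors that direct the identity of embryonic tissues, and their messages were followed in mouse mesenchymal cells that carried wild-type or mutant DNMT3A while the cells were turned towards adipocytes. The members were taken by symbol: every gene of the count table named Sox or Tbx followed only by a number. This gave 32 of the 30170 genes, 19 SOX genes and 13 T-box genes. A symbol is the only criterion, so relatives with other names (Sry, T, Eomes, Tcf7 and the like) are not members and were read as a separate list.

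The cells were C3H 10T1/2, an established mouse line of mesenchymal stem cell type, and the RNA was total RNA. WT and W330R cells were sampled undifferentiated, with no treatment, and 2, 4 and 6 days after adipocyte induction. The double mutant W330R-R181E was sampled at the 3 later times, which makes 11 conditions with 2 libraries each and 22 libraries in all. All differentiated cells received isobutylmethylxanthine, dexamethasone, insulin and troglitazone at first and insulin alone after day 2. DNMT3A is a de novo DNA methyltransferase, and W330R replaces a tryptophan of its PWWP domain, a module that reads histone marks. The column names of the 6 double mutant libraries write R181A where the sample labels write R181E, and the columns were tied to samples through genotype, time and number. The sources used here do not say how the mutations were introduced, whether the lines are clones or pools, or whether replicates are separate cultures, so p-values measure only the spread between these libraries, which may be technical, and a difference of genotype cannot be told apart from a difference between lines. Undifferentiated libraries also carry column names of a different form, so a batch marked by those names and the start of differentiation cannot be told apart.

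A SOX protein binds the minor groove of DNA through a high mobility group box and bends it, and a T-box protein binds through the T-box, first described in brachyury. SOX9 with SOX5 and SOX6 drives the cartilage program of mesenchymal cells, SOX4, SOX11 and SOX12 act in progenitors of many tissues, and SOX2 marks neural and pluripotent cells. Among T-box factors, TBX1, TBX18 and TBX20 pattern the pharynx and heart, TBX15 the skeleton and some fat depots, TBX4 and TBX5 the limbs, and TBX2 and TBX3 are repressors. Promoters of both families are often rich in CpG, the dinucleotide that DNMT3A methylates, and many of these genes are targets of Polycomb complexes where they are silent.

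Promoter sequences are shown for 5 of the 7 members called between W330R and the double mutant over days 2 to 6. Their CpG content can thus be read beside their levels. Of the others, Tbx3 had no RefSeq window, and for Sox13, which was higher in the double mutant, only the number of CpG is given. Each is the 250 bases before a RefSeq transcription start in GRCm38.p6, written 5′ to 3′ on the strand of the gene, with CpG in capitals. Sox4 lies at chr13:28953700-28953949 on the minus strand, Sox12 at chr2:152398047-152398296 on the minus strand, Tbx18 at chr9:87731261-87731510 on the minus strand, Sox5 at chr6:143947107-143947356 on the minus strand and Sox6 at chr7:116031048-116031297 on the minus strand. Sox6 has 6 listed starts, and the window shown is the one with most CpG, which lies inside the gene as it runs from the start farthest upstream.
Sox4: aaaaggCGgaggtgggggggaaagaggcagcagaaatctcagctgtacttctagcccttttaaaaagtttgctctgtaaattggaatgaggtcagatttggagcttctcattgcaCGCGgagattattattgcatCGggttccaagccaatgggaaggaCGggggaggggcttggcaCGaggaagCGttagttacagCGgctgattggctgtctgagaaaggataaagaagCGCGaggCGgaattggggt
Sox12: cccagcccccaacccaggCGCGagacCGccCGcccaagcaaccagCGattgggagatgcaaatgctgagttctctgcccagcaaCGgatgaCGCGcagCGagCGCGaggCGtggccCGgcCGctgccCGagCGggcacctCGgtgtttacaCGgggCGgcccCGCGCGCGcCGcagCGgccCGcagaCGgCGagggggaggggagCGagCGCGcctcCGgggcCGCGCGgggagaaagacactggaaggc
Tbx18: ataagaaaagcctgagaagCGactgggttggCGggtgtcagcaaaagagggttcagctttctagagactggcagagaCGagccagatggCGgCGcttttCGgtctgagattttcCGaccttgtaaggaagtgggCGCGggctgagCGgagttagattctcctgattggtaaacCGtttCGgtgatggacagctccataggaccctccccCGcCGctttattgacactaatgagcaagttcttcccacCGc
Sox5: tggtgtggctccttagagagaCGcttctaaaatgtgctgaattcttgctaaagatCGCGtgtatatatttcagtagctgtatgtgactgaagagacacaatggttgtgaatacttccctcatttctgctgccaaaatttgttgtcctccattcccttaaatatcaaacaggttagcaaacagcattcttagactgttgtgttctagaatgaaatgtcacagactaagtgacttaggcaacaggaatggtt
Sox6: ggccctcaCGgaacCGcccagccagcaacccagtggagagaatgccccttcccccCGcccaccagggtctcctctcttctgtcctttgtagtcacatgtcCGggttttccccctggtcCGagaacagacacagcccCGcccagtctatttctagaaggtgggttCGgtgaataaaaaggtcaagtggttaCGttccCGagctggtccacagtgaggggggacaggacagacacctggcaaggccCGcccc

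These 250 bases held 11 CpG before Sox4, 35 before Sox12, 15 before Tbx18, 3 before Sox5 and 10 before Sox6. Tbx1 and Tbx20, which were higher in both mutants than in WT, had 17 and 22. For Sox13 the count is of a window that also holds 50 bases after the start, 300 in all, with 40 CpG. Windows of that length held 12 for Sox4, 47 for Sox12, 15 for Tbx18, 3 for Sox5 and 13 for the Sox6 start shown. The RefSeq table held windows for 22 of the 32 members, 30 windows in all, each of 250 bases before and 50 bases after a start. The median CpG number of the member windows was 12.5 (quartiles 4 and 25), beside 7 (quartiles 3 and 20) for all 32851 promoter windows. Letter strings of SOX sites and a T-box site were searched on both strands. ACAAAG was present in 9 of the 30 member windows, 5 of them before Sox6, and in 18.7% of all windows, ACAATG, which shares its first 4 letters, was present in 4 and in 12.6%, and AGGTGTGA was present in 0 and in 1.28%. A match is only a string of letters in the window. Methylation was not among the data used here, so no value ties a promoter to DNMT3A.

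Libraries held between 8859501 and 47453908 counts on genes (median 19355792), and values are given as CPM, read counts scaled to a common library size with TMM. A value of 3 counts corresponded to 0.0583 to 0.347 CPM, which is the smallest level the depth can show and covers counting error only. Of the labelled cell type, all 7 mesenchymal markers were at 1 CPM or more, and their summed level was 11110.3 to 16424 CPM in undifferentiated cells and 858 to 8504 CPM on days 2 to 6. Summed over Adipoq, Fabp4, Plin1 and Cidec, adipocyte markers held 2.82 to 5.39 CPM in undifferentiated cells, 2480 to 7579 CPM in WT on days 2 to 6, 1137 to 2111 CPM in W330R and 1227 to 3491 CPM in the double mutant. Pecam1, Cdh5, Kdr and Emcn of endothelium summed to 0.754 to 16.1 CPM, leukocyte markers to 2.56 to 16.4 CPM, pluripotency markers to 0.0984 to 1.34 CPM and markers of brown and beige fat to 0 to 2.24 CPM. Markers of neural crest and glia summed to 3.61 to 27.5 CPM, with Foxd3 at 0 counts in every library, and Zfp42 of pluripotent cells was also at 0. Of the markers of endothelium, leukocytes and pluripotent cells, only Pecam1, Ptprc, Cd68 and Nanog were tested. In the 3 comparisons of genotypes over days 2 to 6 none of them was called, beside 29.0%, 17.2% and 9.57% of all genes. Condition means of Pecam1, Ptprc and Nanog were at most 2.14 CPM on those days. The lack of a call therefore does not show that these cell types were alike. Erbb3 of glia and Prdm16 of brown fat were higher in double mutant than in W330R cells, and Prdm16 also than in WT cells. Cidea was lower in W330R than in WT. It had at most 5 counts in a W330R library and 10 or more only in WT and double mutant libraries. It passed the filter through those groups, so its difference is a description. Prdm16 had 10 counts or more only in replicate 1 of the double mutant on days 2 and 6. It passed the filter on low counts through the group where it is high, so its difference is a description. Erbb3 held 17.4 and 0.149 CPM in the double mutant on day 2, so its replicates differed widely. Of 4 chondrocyte markers, Acan was lower in W330R than in WT, beside 29.0% of all genes called. For the double mutant against W330R Hapln1 and Col2a1 were higher, beside 17.2%. Acan was 27.3 to 80.1 times higher in replicate 1 than in replicate 2 of WT on days 2 to 6. Its level in WT thus came mainly from replicate 1, and its condition means in W330R were 0.0185 to 0.04 CPM there. Acan passed the filter on low counts through WT and double mutant libraries, so its difference between W330R and WT is a description. For Hapln1 in the double mutant the ratio of replicate 1 to replicate 2 was 6.33 to 37.8. DNA methyltransferases were also read: 3 of 4 were tested, and over days 2 to 6 Dnmt1 alone was called between W330R and WT, with a log2 fold change of 0.36 ± 0.12. Dnmt3a had a log2 fold change of -0.45 ± 0.23 for W330R against WT and -0.68 ± 0.23 for the double mutant against WT, neither called, and gene counts do not show a point mutation.

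Most members were silent or nearly so. Of the 32 genes, 13 reached a mean of 1 CPM in at least 1 of the 11 conditions, 6 SOX genes (Sox4, Sox9, Sox6, Sox5, Sox12 and Sox13) and 7 T-box genes (Tbx18, Tbx15, Tbx1, Tbx3, Tbx2, Tbx6 and Tbx20). This is 40.6% of the members, beside 44.0% of all genes of the table. The count was 13 with raw library totals, 12 when both libraries of a condition had to reach 1 CPM, and 12 to 14 when any one library was left out. Tbx20 was just inside the limit, with a highest condition mean of 1.05 CPM, and Sox8 just outside, with 0.643 CPM. In all, 9 members stood at 1 CPM or more in every condition: Sox4, Sox9, Sox6, Tbx18, Tbx15, Tbx1, Sox12, Tbx3 and Sox13.

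**Figure D1:**
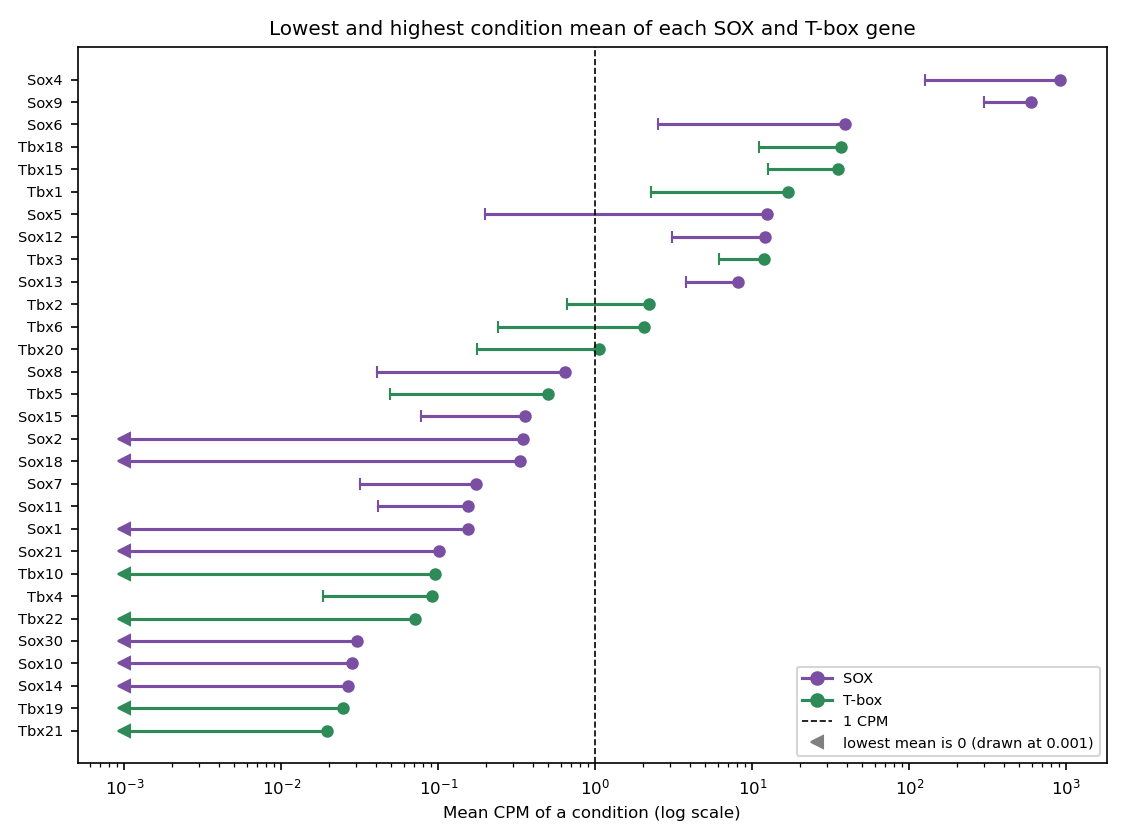
Lowest and highest condition mean (CPM, log axis) of the 30 members with at least 1 count, SOX genes in violet and T-box genes in green. The dot is the highest of the 11 condition means, and 13 dots lie at or beyond the dashed line at 1 CPM, from Tbx20 at 1.05 CPM to Sox4 at 913 CPM.

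The 19 members below 1 CPM include factors of neural, endothelial, germ and limb cells. Tbx5, a limb and heart factor next to Tbx3 in the genome, reached 0.500 CPM, and Sox15 reached 0.355 CPM. Sox2 and Sox1 of neural and pluripotent cells reached 0.345 and 0.154 CPM, and the endothelial factors Sox18 and Sox7 reached 0.333 and 0.173 CPM. Sox11, the third SoxC gene, reached 0.155 CPM, in contrast to Sox4. Sox21, Tbx10, Tbx4, Tbx22, Sox30, Sox10, Sox14, Tbx19 and Tbx21 stayed at or under 0.101 CPM, and Sox3 and Sox17 had 0 counts in all 22 libraries. Since a library needs 3 counts to show a gene, levels under 0.0583 CPM were not detectable at this depth.

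Levels of genes can be set beside one another only per length, and the merged exons of each gene in GENCODE vM21 were used for that. Sox9 held a mean of 100.1 CPM per kb over all libraries and Sox4 94.0 CPM per kb, although Sox4 had the higher CPM (450.5 against 414). Next came Tbx15 with 5.96, Tbx18 with 4.43 and Tbx1 with 3.09 CPM per kb, then Sox12 with 1.47, Sox13 with 1.34, Tbx3 with 1.28, Sox6 with 0.933, Tbx6 with 0.725, Tbx2 with 0.417, Sox5 with 0.288 and Tbx20 with 0.0442 CPM per kb. The first place depended on the condition: Sox9 had a mean of 354 CPM and Sox4 of 126 CPM in undifferentiated WT, but in W330R on day 2 Sox9 had 298 CPM and Sox4 913 CPM, over merged exons of 4.135 kb for Sox9 and 4.795 kb for Sox4. The means over all libraries hide this. Exons of all isoforms were merged, so a value per kb is too low where the cells use a short isoform.

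Differences were tested with edgeR's quasi-likelihood test on all 14520 genes that passed a filter on low counts, and called genes are those with an adjusted p (Benjamini-Hochberg) below 0.05. Only 15 members passed the filter, 7 SOX and 8 T-box genes, namely the 13 above and Sox8 and Tbx5, and 17 were not tested. A member that passes only because it is high in some conditions had to differ, so counts over these 15 are a description. In bulk RNA, fewer cells of a type and less RNA per cell cannot be told apart.

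Before differentiation no member was called between W330R and WT. Of the 15 tested members, 0 passed the test, beside 1.75% of all genes, while 2 had an unadjusted p under 0.05 and DESeq2 called 0. A fit of the 4 undifferentiated libraries alone called 3, with no share of all genes at hand beside it. The main fit estimates the spread of a gene over all conditions, the more variable differentiated ones included. Sox9 held a mean of 354 CPM (SD 3.38) in WT and 495 CPM (SD 2.5) in W330R, but its log2 fold change was 0.48 ± 0.53. The 0 calls therefore do not show that the genotypes were alike before differentiation. Sox4 held 128 and 125 CPM in WT and 184 and 184 CPM in W330R, a log2 fold change of 0.54 ± 0.21 that missed the threshold (adjusted p = 0.26). Tbx2, a repressor of cell cycle inhibitors, held 1.67 and 1.51 CPM in WT and 0.980 and 0.347 CPM in W330R, with a log2 fold change of -1.20 ± 0.52 (adjusted p = 0.34). Sox4 and Tbx2 were the 2 members with an unadjusted p under 0.05. Their libraries did not overlap between the genotypes, but with 2 against 2 libraries this is no support for a difference.

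During differentiation W330R cells held more Sox4, Sox12, Tbx1, Tbx3, Tbx18 and Tbx20 and less Sox5 than WT cells. Over days 2 to 6, 7 of the 15 tested members (46.7%) were called, 6 higher and 1 lower, beside 29.0% of all genes. Tbx20, one of the 6, passed the filter on low counts only through mutant libraries, and its call here and in the other comparisons is a description. The median log2 fold change of the 15 members was 0.08 and that of all genes 0.02 on the log2 scale. With the undifferentiated stage included, 5 members were called, all higher (Tbx1, Tbx3, Tbx20, Tbx18 and Sox4), beside 22.9% of all genes. In that average, the call of Tbx18 was lost without any one of 10 libraries (all 4 undifferentiated ones, replicate 2 of WT and replicate 1 of W330R on each of days 2 to 6; adjusted p 0.0063 to 0.1 over the alternatives). With no filter on low counts both that call and the call of Tbx20 were lost (adjusted p = 0.10 and 0.055). The call of Tbx20 was also lost without replicate 2 of undifferentiated WT, replicate 1 of undifferentiated W330R, replicate 2 of WT day 6 or replicate 1 of W330R day 2 (adjusted p 0.014 to 0.12).

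In the double mutant, Sox4, Sox12, Tbx3 and Tbx18 were lower and Sox5, Sox6 and Sox13 were higher than in W330R. In all, 7 of the 15 tested members were called, 3 higher and 4 lower, beside 17.2% of all genes, with a median of 0.05 over the 15 members. Against WT, the double mutant had 2 called members, Tbx1 and Tbx20, both higher, beside 9.57% of all genes, with a median of 0.26, and 3 more had an unadjusted p under 0.05. The comparison of W330R with WT and that of the double mutant with W330R share the W330R libraries, so opposite signs in both are not independent, and each gene's levels in the 3 genotypes are given with it. All 3 genotype comparisons over days 2 to 6 were also fitted within each replicate number, with genotype and day as terms and 9 libraries each. Days then stand in for replicates, as each condition has 1 library, so the p-values measure no spread between replicates of a genotype. The fit within numbers is an alternative chosen after the data were seen. This called 6 and 5 members for W330R against WT in replicate numbers 1 and 2, 9 and 5 for the double mutant against W330R, and 6 and 3 for the double mutant against WT. The share of all genes called was 17.8% and 40.5%, 21.8% and 16.6%, and 11.3% and 9.95% in the same order.

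**Figure D2:**
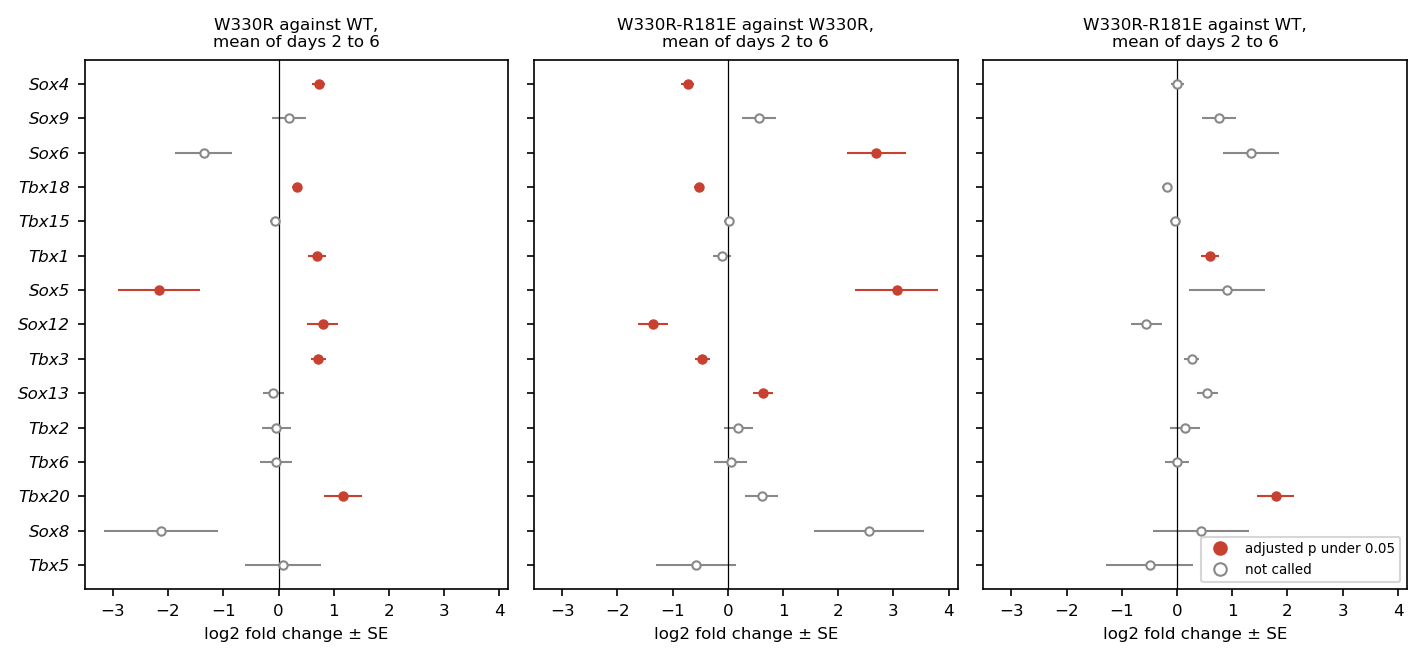
Log2 fold change (x axis) with its standard error for the 15 tested members in 3 comparisons of genotypes over days 2 to 6. Filled red points have an adjusted p under 0.05, 7 in the first panel, 7 in the second and 2 in the third, and Sox5 and Sox6 show the longest bars among called genes.

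Sox4 and Sox12, SoxC factors of progenitor cells, shared a pattern in which W330R stood above both other genotypes. In WT, Sox4 held 591 and 472 CPM on day 2, 398 and 296 on day 4, and 404 and 379 on day 6. In W330R, Sox4 held 1079.8 and 747 CPM on day 2, 678 and 521 on day 4, and 606 and 586 on day 6, and in the double mutant it held 523 and 481 CPM on day 2, 361 and 334 on day 4, and 352 and 482 on day 6. W330R was above WT in 6 of 6 libraries of the same day and replicate number, and above the double mutant in 6 of 6, although the ranges over all 3 days overlapped since levels differed between days. The log2 fold change was 0.73 ± 0.12 for W330R against WT (adjusted p = 0.00061), -0.72 ± 0.12 for the double mutant against W330R (adjusted p = 0.001) and 0.00 ± 0.12 for the double mutant against WT. Both calls held without any of the 22 libraries, with adjusted p of 3.9e-08 to 0.0057 and 6.5e-08 to 0.0086 over the alternatives. Within replicate numbers 1 and 2 the log2 fold changes for W330R against WT were 0.73 and 0.71. Of the 31-base words of Sox4, 54.7% also occur in transcripts of other genes, most often in Gm26735, a transcript on the other strand. Whether the counting used strand is not given in the sources used here, so reads of Sox4 and Gm26735 cannot be told apart.

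Sox12 was far lower than Sox4. WT libraries held 5.44 and 3.49 CPM on day 2, 8.16 and 3.23 on day 4, and 10.8 and 4.52 on day 6. The level in W330R was 8.45 and 7.19 CPM on day 2, 11.2 and 10.4 on day 4, and 14.2 and 9.77 on day 6, and in the double mutant 3.94 and 2.23 CPM on day 2, 4.32 and 3.78 on day 4, and 6.11 and 3.57 on day 6. All 6 double mutant libraries lay below all 6 of W330R, whereas WT overlapped W330R. The log2 fold change was 0.80 ± 0.27 for W330R against WT (adjusted p = 0.041) and -1.35 ± 0.28 for the double mutant against W330R (adjusted p = 0.0044, held without any of the 22 libraries). The first of these calls is weak: it was lost without any one of 10 libraries (both undifferentiated WT libraries, replicate 2 of WT on days 2, 4 and 6, both W330R libraries of days 2 and 4, and replicate 1 of W330R day 6) and in a fit of the WT and W330R libraries of days 2 to 6 alone (adjusted p 0.0019 to 0.12 over the alternatives). In undifferentiated cells Sox12 held 6.78 and 6.32 CPM in WT and 6.12 and 3.82 CPM in W330R.

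**Figure D3:**
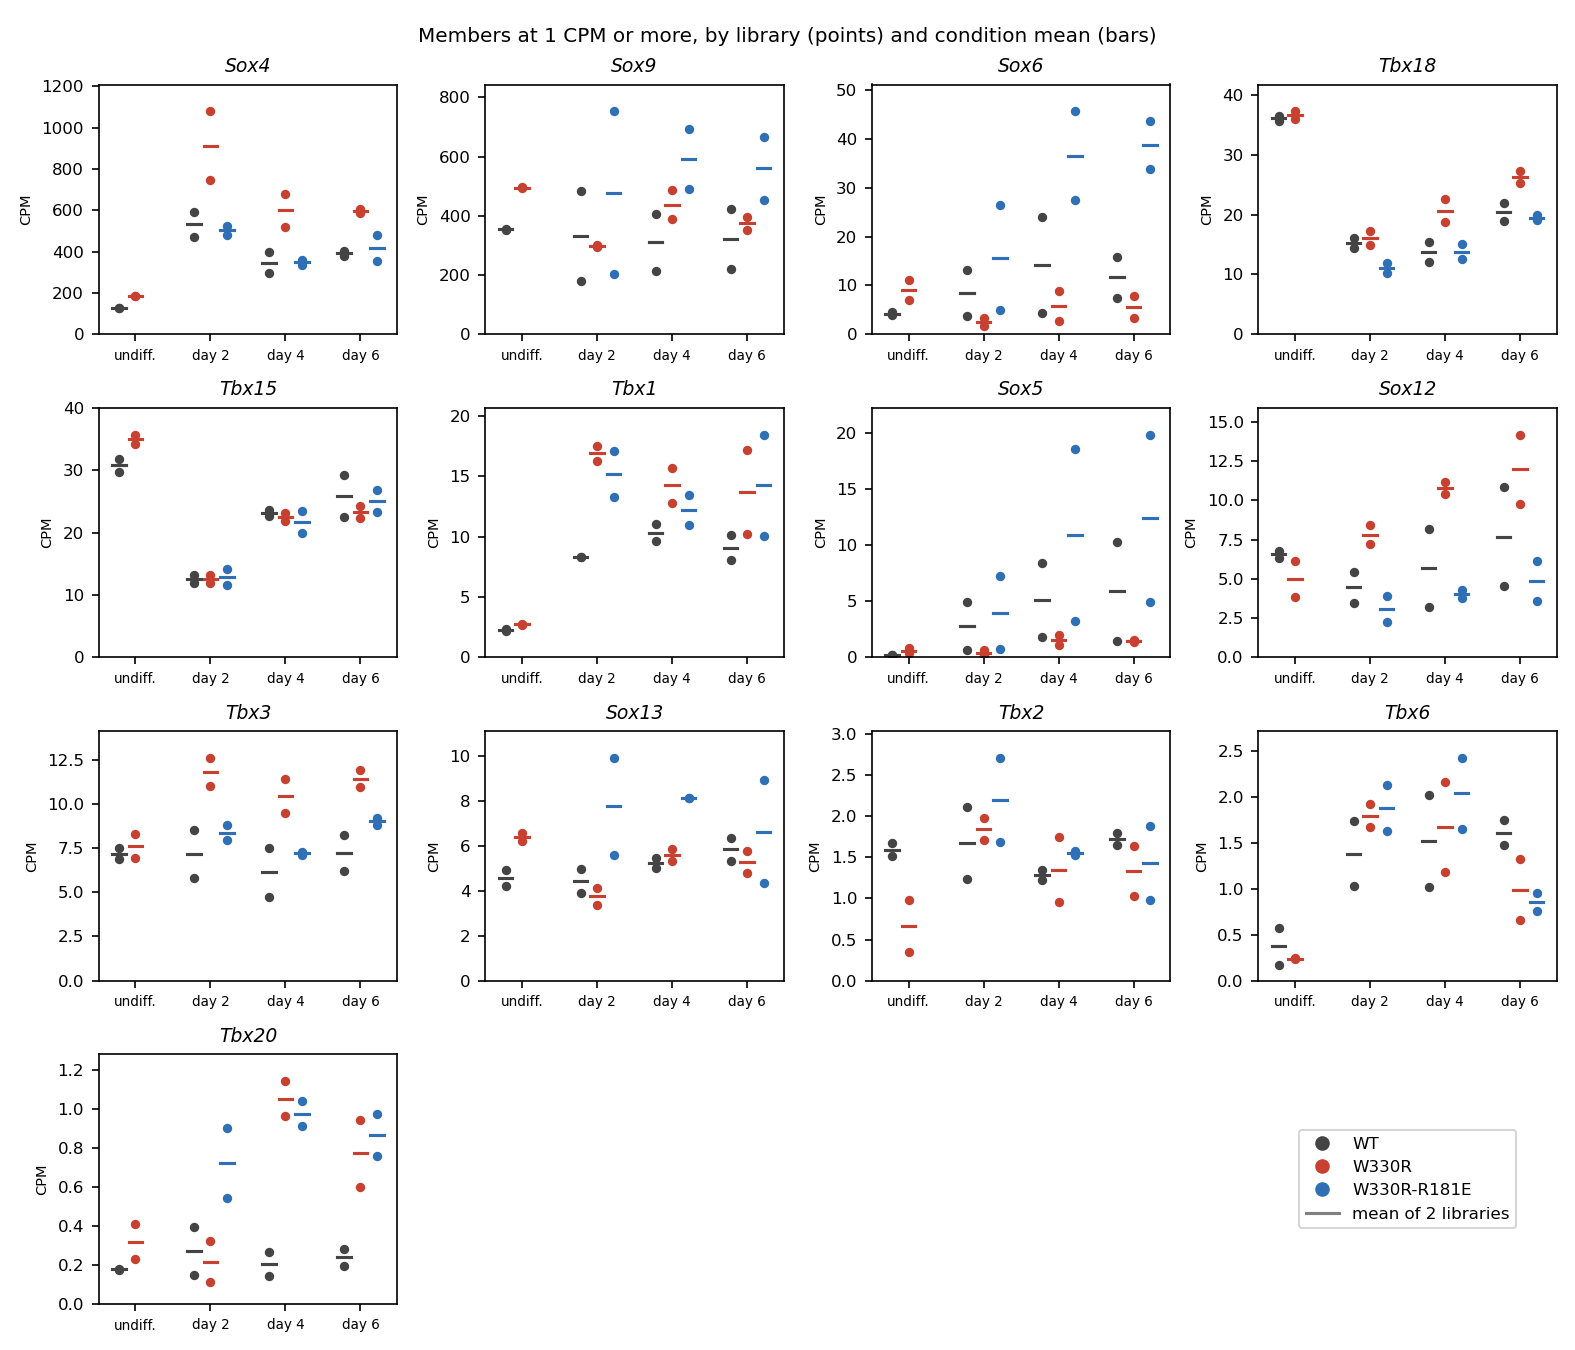
Level (CPM, linear axis from 0) of the 13 members at 1 CPM or more, by stage on the x axis, with each library as a point and the mean of 2 libraries as a bar, WT in grey, W330R in red and W330R-R181E in blue. Tbx3 in W330R lies above every WT and double mutant point on days 2 to 6, with 9.49 CPM as its lowest W330R value there, and Sox5, Sox6 and Sox9 spread widely within WT and the double mutant.

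Tbx3, a repressor of the Tbx2 subfamily, was also highest in W330R on days 2 to 6. It did not overlap there with WT or the double mutant, whose own ranges overlapped. Its WT libraries held 8.53 and 5.80 CPM on day 2, 7.51 and 4.74 on day 4, and 8.22 and 6.22 on day 6. W330R held 12.6 and 11.04 CPM on day 2, 11.4 and 9.49 on day 4, and 11.9 and 10.96 on day 6, and the double mutant 8.78 and 7.97 CPM on day 2, 7.29 and 7.13 on day 4, and 8.81 and 9.21 on day 6. Every one of the 6 W330R libraries was above all 6 WT libraries and above all 6 double mutant libraries, while in undifferentiated cells the level was 6.87 and 7.48 CPM in WT and 6.94 and 8.33 CPM in W330R. Tbx3 gave a log2 fold change of 0.72 ± 0.14 for W330R against WT (adjusted p = 0.0019), a call that held without any of the 22 libraries, and 0.56 and 0.92 within replicate numbers 1 and 2. For the double mutant against W330R it was -0.46 ± 0.14 (adjusted p = 0.037), and this call was lost without any one of 13 libraries (both undifferentiated WT libraries, every W330R library of days 2 to 6 other than replicate 2 of day 4, and all 6 double mutant libraries) and with no filter on low counts (adjusted p 0.0099 to 0.095 over the alternatives), and within replicate number 2 (-0.38, adjusted p = 0.086). Tbx2, the closest relative, was between 0.954 and 2.71 CPM in every library of days 2 to 6 and was called in no comparison.

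Tbx18, known from the heart, ureter and mural cells, had the same signs as Tbx3 in both comparisons with W330R, with a smaller difference from WT. On days 2 to 6, Tbx18 in WT held 16.1 and 14.5 CPM on day 2, 15.4 and 12.2 on day 4, and 21.95 and 19.01 on day 6. In W330R it held 17.2 and 14.9 CPM on day 2, 22.6 and 18.9 on day 4, and 27.3 and 25.3 on day 6, and in the double mutant 11.9 and 10.2 CPM on day 2, 15.1 and 12.5 on day 4, and 20.03 and 19.1 on day 6. W330R was above WT and above the double mutant in 6 of 6 libraries matched by day and number, with overlapping ranges over the days. For Tbx18 the log2 fold change was 0.34 ± 0.09 for W330R against WT (adjusted p = 0.012) and -0.52 ± 0.09 for the double mutant against W330R (adjusted p = 0.0015), and both calls held without any of the 22 libraries. Within replicate numbers 1 and 2, W330R against WT gave 0.31 and 0.36, neither called (adjusted p = 0.094 and 0.074). Of its 31-base words, 19.5% also occur in transcripts of other genes, most often in D030062O11Rik on the other strand.

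Tbx1, a pharyngeal factor, was higher in both mutants than in WT. It held 8.31 and 8.31 CPM on day 2, 11.05 and 9.64 on day 4, and 10.2 and 8.07 on day 6 in WT. It held 17.5 and 16.3 CPM on day 2, 15.7 and 12.8 on day 4, and 17.2 and 10.3 on day 6 in W330R, and 17.1 and 13.3 CPM on day 2, 13.5 and 11.002 on day 4, and 18.5 and 10.1 on day 6 in the double mutant. Each mutant was above WT in 6 of 6 libraries matched by day and number, and the ranges overlapped. Against WT, the log2 fold change was 0.70 ± 0.16 for W330R (adjusted p = 0.0058, held without any of the 22 libraries) and 0.59 ± 0.16 for the double mutant (adjusted p = 0.037). The call for the double mutant was lost without any one of 11 libraries (all 4 undifferentiated ones, both of WT day 2, replicate 2 of WT days 4 and 6, and replicate 1 of the double mutant on each day) and in a fit of the double mutant and WT libraries alone (adjusted p 0.01 to 0.13 over the alternatives), and it was not called within replicate number 2 (0.39, adjusted p = 0.15). Between the 2 mutants the log2 fold change was -0.10 ± 0.16 (adjusted p = 0.73).

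Tbx20, a heart factor, was near the limit of 1 CPM and rested on few counts. WT libraries held 0.151 and 0.394 CPM on day 2, 0.144 and 0.269 on day 4, and 0.284 and 0.194 on day 6, from 2 to 8 counts each. W330R held 0.321 and 0.114 CPM on day 2, 1.15 and 0.963 on day 4, and 0.603 and 0.944 on day 6, and the double mutant 0.903 and 0.545 CPM on day 2, 0.912 and 1.04 on day 4, and 0.976 and 0.758 on day 6. On day 2 one W330R library lay within the WT range and the other below it, whereas its day 4 and day 6 libraries and all 6 double mutant libraries were above every WT library. Tbx20 had 10 counts or more only in mutant libraries, so it passed the filter through the libraries where it is high, its difference from WT was partly fixed by that, and its fold changes are a description. For Tbx20 the log2 fold change was 1.17 ± 0.34 for W330R against WT (adjusted p = 0.019) and 1.78 ± 0.33 for the double mutant against WT (adjusted p = 0.007). The W330R call was lost without replicate 2 of WT day 6, replicate 1 of W330R day 2 or replicate 2 of W330R day 6, with no filter on low counts, and in a fit of the WT and W330R libraries of days 2 to 6 alone (adjusted p 0.012 to 0.15). Within replicate numbers 1 and 2 it was 1.67 and 1.02 (adjusted p = 0.074 and 0.27). The double mutant call held without any of the 22 libraries but was lost in the fit of the double mutant and WT libraries alone (adjusted p = 0.053) and within replicate number 2 (1.36, adjusted p = 0.24).

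Sox5, Sox6 and Sox9, which act together in cartilage, were spread widely between libraries, and some of their differences between genotypes were not alike in replicate numbers 1 and 2. Sox9, the leading factor of the trio, held 484 and 178 CPM on day 2, 406 and 215 on day 4, and 422 and 219.5 on day 6 in WT. It held 303 and 293 CPM on day 2, 389 and 488 on day 4, and 353 and 397 on day 6 in W330R and 753 and 204 CPM on day 2, 693 and 489 on day 4, and 667 and 454 on day 6 in the double mutant. Replicate 1 was above replicate 2 in WT and the double mutant on all 3 days, by 1.89 to 2.72 times and 1.42 to 3.70 times, and the ratio was 0.797 to 1.03 in W330R. Sox9 was called in no comparison of all libraries, and its log2 fold change was 0.19 ± 0.31 for W330R against WT (adjusted p = 0.69) and 0.76 ± 0.31 for the double mutant against WT (adjusted p = 0.13). Within replicate numbers 1 and 2 the value for W330R against WT was -0.34 and 0.91 (adjusted p = 0.093 and 0.0068), and that for the double mutant against W330R 1.02 and -0.09 (adjusted p = 0.0019 and 0.78). Against WT, the double mutant had 0.68 and 0.82, called in both numbers (adjusted p = 0.02 and 0.037), and Sox9 was above WT in 6 of 6 libraries matched by day and number. In undifferentiated cells it stood at 356 and 352 CPM in WT and 497 and 493 CPM in W330R.

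Sox6, a SoxD factor without an activation domain of its own, held 13.1 and 3.74 CPM on day 2, 24.04 and 4.31 on day 4, and 15.8 and 7.39 on day 6 in WT. In W330R, Sox6 held 1.71 and 3.27 CPM on day 2, 2.61 and 8.86 on day 4, and 3.34 and 7.84 on day 6. The double mutant held 26.4 and 4.90 CPM on day 2, 45.6 and 27.5 on day 4, and 43.6 and 33.9 on day 6. The double mutant was above W330R and above WT in 6 of 6 libraries matched by day and number, and the ranges overlapped. The log2 fold change of the double mutant was 2.69 ± 0.53 against W330R (adjusted p = 0.0035, held without any of the 22 libraries) and 1.34 ± 0.51 against WT (adjusted p = 0.1). Within replicate numbers 1 and 2 the difference from WT was 1.122 and 1.83, of the same sign in both. For W330R against WT it was -1.35 ± 0.52 (adjusted p = 0.065) in the fit of all libraries. Here the replicate numbers disagreed, with -2.76 within number 1 and 0.29 within number 2. Replicate 1 exceeded replicate 2 by 2.14 to 5.58 times in WT and 1.29 to 5.39 times in the double mutant, and the ratio was 0.295 to 0.523 in W330R. For the double mutant against W330R the sign was the same in both, with 3.88 and 1.54.

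Sox5, the closest relative of Sox6, was near the floor of counting in undifferentiated WT cells, at 0.176 and 0.223 CPM (2 and 5 counts). On the later days it held 4.91 and 0.689 CPM on day 2, 8.45 and 1.83 on day 4, and 10.3 and 1.51 on day 6 in WT. It held 0.641 and 0.190 CPM on day 2, 2.04 and 1.07 on day 4, and 1.56 and 1.396 on day 6 in W330R and 7.22 and 0.792 CPM on day 2, 18.6 and 3.26 on day 4, and 19.9 and 4.98 on day 6 in the double mutant. W330R was below WT and below the double mutant in 6 of 6 matched libraries, while the replicate 2 libraries of WT, at 0.689 to 1.83 CPM, lay within the W330R range. Sox5 gave a log2 fold change of -2.16 ± 0.74 for W330R against WT (adjusted p = 0.041), with -2.57 within replicate number 1 and -0.79 within number 2 (adjusted p = 0.13). That call was lost without any one of 13 libraries (all 4 undifferentiated ones, replicate 1 of WT on each day and all 6 of W330R; adjusted p 0.0062 to 0.16 over the alternatives). For the double mutant against W330R the log2 fold change was 3.06 ± 0.75 (adjusted p = 0.013), lost only without replicate 1 of double mutant day 2 (adjusted p = 0.053), and 3.45 and 1.75 within the numbers. Of the 31-base words of Sox5, 9.37% also occur in transcripts of other genes, most often in Sox5os1 on the other strand.

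Sox13, the third SoxD gene, held 4.98 and 3.89 CPM on day 2, 5.49 and 5.01 on day 4, and 6.35 and 5.35 on day 6 in WT. It held 3.37 and 4.15 CPM on day 2, 5.34 and 5.85 on day 4, and 5.77 and 4.80 on day 6 in W330R and 9.93 and 5.596 CPM on day 2, 8.15 and 8.13 on day 4, and 8.95 and 4.33 on day 6 in the double mutant. The double mutant was above W330R in 5 of 6 matched libraries, with overlapping ranges. The log2 fold change for the double mutant against W330R was 0.64 ± 0.18 (adjusted p = 0.028), with 0.92 within replicate number 1 and 0.29 within number 2 (adjusted p = 0.39). The call was lost without any one of 9 libraries (W330R day 2 replicate 1, both of W330R days 4 and 6, double mutant replicate 1 on each day, and double mutant day 4 replicate 2) and in a fit of the double mutant and W330R libraries alone (adjusted p 0.0066 to 0.097 over the alternatives). Sox8, a SoxE relative of Sox9, had 0 to 46 counts per library and was called in no comparison of all libraries, with log2 fold changes of -2.13 ± 1.03 for W330R against WT and 2.56 ± 1.00 for the double mutant against W330R. The latter was 2.95 within replicate number 1. On days 2 to 6 Sox8 reached at most 0.127 CPM in W330R, 0.851 CPM in WT and 1.07 CPM in the double mutant. It passed the filter on low counts through WT and double mutant libraries, so its fold changes are a description.

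Cartilage matrix genes were read beside the trio, since SOX9 with SOX5 and SOX6 is known to activate them. Of the 15 genes listed, 13 were measured and tested. For the double mutant against W330R 6 were higher (Hapln1, Col2a1, Col11a2, Col9a1, Col9a2 and Comp) and 0 lower, beside 17.2% of all genes called, with a list median of 1.59 on the log2 scale beside 0.01 for all genes. For W330R against WT 3 were lower (Col11a2, Col9a1 and Acan) and 0 higher, with a list median of -0.64, and 3 of 13 is a smaller share than the 29.0% of all genes called. The call of Acan is a description, since Acan passed the filter on low counts only through WT and double mutant libraries. Against WT, 2 were higher in the double mutant (Hapln1 and Comp), beside 9.57% of all genes. Col2a1, the collagen of cartilage, held 446 and 32.1 CPM on day 2, 1093 and 194 on day 4, and 1692 and 235 on day 6 in WT. It held 61.6 and 33.3 CPM on day 2, 281 and 319.8 on day 4, and 391 and 385 on day 6 in W330R and 1373 and 41.1 CPM on day 2, 3883 and 655 on day 4, and 4467 and 1094 on day 6 in the double mutant. In undifferentiated cells Col2a1 was already at 795 and 776 CPM in WT and 486 and 476 CPM in W330R. Its ratio of replicate 1 to replicate 2 was 5.64 to 13.9 in WT and 4.08 to 33.4 in the double mutant, but 0.880 to 1.85 in W330R. Col9a1 showed ratios of 4.58 to 10.7, 3.91 to 33.2 and 0.462 to 0.810, and Sox5 of 4.62 to 7.13, 3.99 to 9.12 and 1.11 to 3.37. The summed level of the 4 chondrocyte markers was 32.2 to 1716 CPM in WT, 33.3 to 391 CPM in W330R and 41.3 to 4572 CPM in the double mutant. In WT and the double mutant, Col2a1, Col9a1 and Hapln1 were higher in replicate 1 on all 3 days, as were Sox5, Sox6 and Sox9, whereas Col11a2 was higher there on 1 of 3 days in WT and Chad on 2 of 3. In W330R, Sox5 was higher in replicate 1 on 3 of 3 days, but Sox6 and Col9a1 on 0 of 3. The part of these differences between libraries in the genotype differences was not tested.

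**Figure D4:**
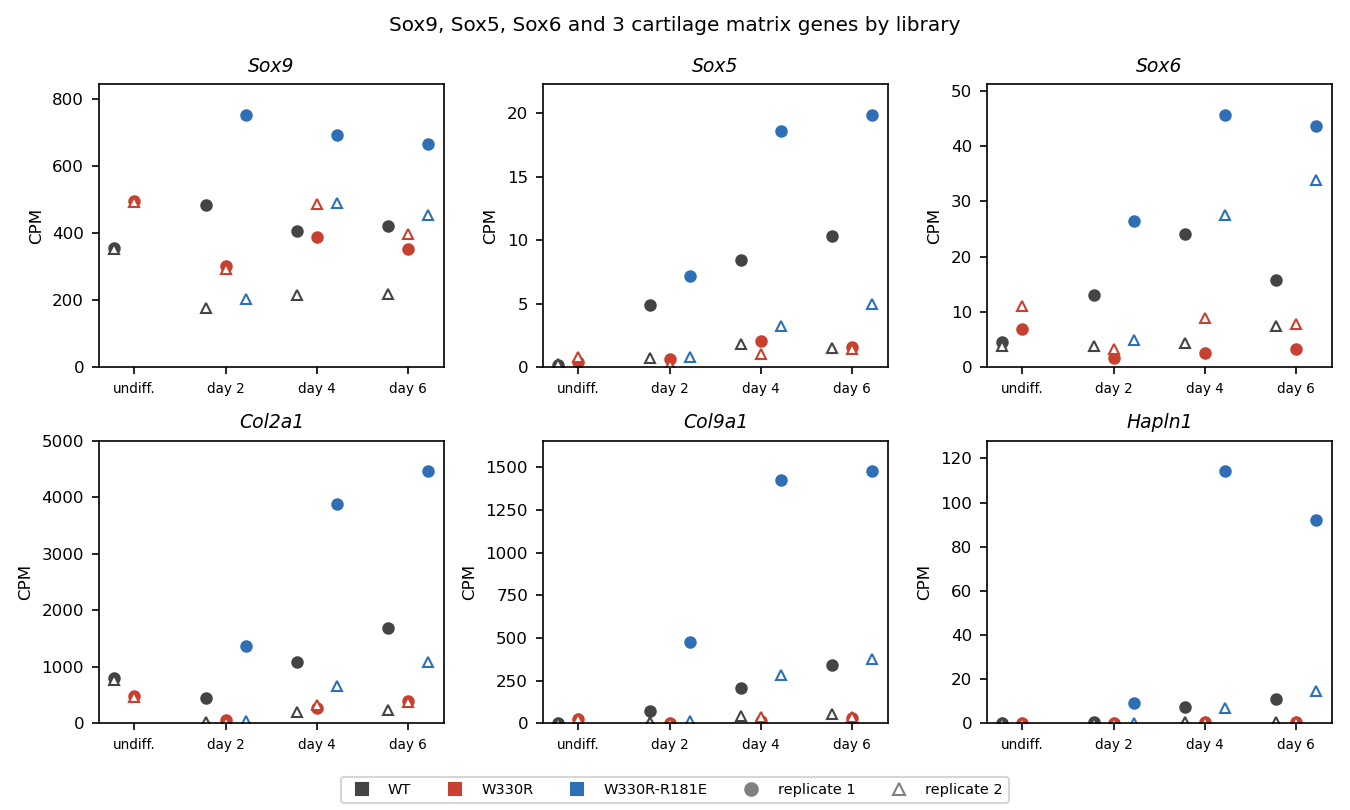
Level (CPM, linear axis) of Sox9, Sox5, Sox6 and of 3 cartilage matrix genes by stage, with replicate 1 as filled circles and replicate 2 as open triangles, WT in grey, W330R in red and W330R-R181E in blue. On days 2 to 6 each circle of WT and of the double mutant lies above its triangle for all 6 genes, and the Col2a1 values of the double mutant run from 41.1 to 4467 CPM.

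Sox2 did not pass the filter on low counts and is named for its values, which were seen first. It had 6, 3, 5, 4, 27 and 4 counts in the W330R libraries of days 2 to 6, in the order of day and replicate, whereas the WT libraries had 0 in 5 of 6 and 1 in the other. The double mutant had 2 counts in replicate 1 of day 4 and 0 in the other 5. All 6 W330R libraries, at 0.114 to 0.525 CPM, were above all WT and double mutant libraries of their own day. The library with 27 counts is the deepest of all, with 47453908 counts. In the fit with no filter, over 23103 genes, Sox2 was the only untested member that was called, for W330R against WT (adjusted p = 0.0054, where 16.4% of all genes were called), for the double mutant against W330R (adjusted p = 0.0097, beside 9.73%) and for W330R against WT over the 4 stages (adjusted p = 0.0075, beside 12.6%). Its fitted fold change depends on counts of 0 and is not given. A neural factor at a few counts per library is close to the floor of 3 counts.

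With time, Tbx15 was the 1 member that was called from day 2 to day 6 in all 3 genotypes. It was highest in undifferentiated cells, at 31.9 and 29.8 CPM in WT and 34.2 and 35.7 CPM in W330R. In WT it then held 13.1 and 11.9 CPM on day 2, 22.6 and 23.6 on day 4, and 22.5 and 29.3 on day 6. It held 11.9 and 13.3 CPM on day 2, 23.2 and 21.9 on day 4, and 24.3 and 22.3 on day 6 in W330R and 14.1 and 11.6 CPM on day 2, 19.998 and 23.4 on day 4, and 23.4 and 26.9 on day 6 in the double mutant. All day 6 libraries were above all day 2 libraries. The log2 fold change of day 6 against day 2 was 1.05 ± 0.15 in WT (adjusted p = 0.0003), 0.89 ± 0.15 in W330R (adjusted p = 0.0011) and 0.96 ± 0.15 in the double mutant (adjusted p = 0.00088). These calls held without any of the 22 libraries, and those of WT and the double mutant were lost in fits of the 4 libraries of the contrast alone (adjusted p = 0.056 and 0.12). Between genotypes over days 2 to 6 the log2 fold changes of Tbx15, a factor of skeleton and fat depots, were -0.06, 0.03 and -0.03, each with a standard error of 0.09, and none was called.

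From day 2 to day 6, 1 member was called in WT (Tbx15), 4 in W330R (Tbx15, Tbx18 and Tbx20 higher, Sox4 lower) and 2 in the double mutant (Tbx15 and Tbx18, higher), beside 26.6%, 25.0% and 23.2% of all genes. Tbx18 rose by 0.71 ± 0.15 in W330R and 0.83 ± 0.16 in the double mutant (log2; adjusted p = 0.0046 and 0.0028), and its value in WT was 0.42 ± 0.16 (adjusted p = 0.061). The rise of Tbx18 in the double mutant was lost in a fit of its 4 libraries alone (adjusted p = 0.17). Tbx20 rose in W330R by 1.84 ± 0.56 (adjusted p = 0.026), a call lost without replicate 2 of W330R day 2 or of W330R day 6, with no filter, and in the fit of its 4 libraries alone (adjusted p 0.023 to 0.21). Sox4 fell in W330R, with a log2 fold change of -0.62 ± 0.20 (adjusted p = 0.041). This call was lost without any one of 11 libraries (all 4 undifferentiated ones, W330R day 2 replicate 1, both of W330R days 4 and 6, and both of double mutant day 4), with no filter and in the fit of its 4 libraries alone (adjusted p 0.016 to 0.38), and without W330R day 2 replicate 1, at 1079.8 CPM, the value was -0.32. The difference of W330R from WT in the change from day 2 to day 6 was called for 0 members with edgeR and with DESeq2, beside 0.0895% of all genes, and 1 member, Tbx20, had an unadjusted p under 0.05 (2.10 ± 0.83).

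Between undifferentiated cells and day 6, 5 members were called in WT, 4 higher and 1 lower, beside 49.3% of all genes, and 5 in W330R, 3 higher and 2 lower, beside 38.5%. Sox4 rose in both, from 128 and 125 to 404 and 379 CPM in WT and from 184 and 184 to 606 and 586 CPM in W330R, with log2 fold changes of 1.63 ± 0.21 and 1.70 ± 0.21 (adjusted p = 3.1e-05 and 4.8e-05). Tbx1 rose from 2.20 and 2.32 to 10.2 and 8.07 CPM in WT and from 2.69 and 2.78 to 17.2 and 10.3 CPM in W330R, by 2.01 ± 0.31 and 2.33 ± 0.31 on the log2 scale (adjusted p = 0.00012 and 8.2e-05). On day 2 both genes already stood above every undifferentiated library. Tbx18 was lower on day 6, with log2 fold changes of -0.82 ± 0.16 in WT (adjusted p = 0.00064) and -0.48 ± 0.15 in W330R (adjusted p = 0.025), the latter lost without any one of the 4 libraries compared and with no filter (adjusted p 0.0056 to 0.15).

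Tbx6, a factor of paraxial mesoderm, held 0.176 and 0.579 CPM in undifferentiated WT and 1.47 and 1.75 CPM on day 6, and 0.245 and 0.231 and then 1.32 and 0.657 CPM in W330R. Tbx6 and Sox5 passed the filter on low counts through differentiated libraries, so their differences from undifferentiated cells are a description. For Tbx6 the log2 fold changes were 1.97 ± 0.56 (adjusted p = 0.0093) and 2.04 ± 0.64 (adjusted p = 0.021). In WT the call was lost without replicate 1 of undifferentiated cells (adjusted p 0.0059 to 0.08 over the alternatives), and without replicate 2 of undifferentiated cells the value was 3.16. In W330R it was lost without either undifferentiated library or replicate 1 of day 6 (adjusted p 0.014 to 0.16). Sox5 rose in WT by 4.81 ± 1.55 (adjusted p = 0.02), lost without either undifferentiated WT library or replicate 1 of WT day 6 (adjusted p 0.00054 to 0.19); without the last, the value was 2.85. Tbx15 was lower in W330R, with a log2 fold change of -0.58 ± 0.15 (adjusted p = 0.0077), lost without replicate 2 of undifferentiated W330R or of W330R day 6 and with no filter (adjusted p 0.0013 to 0.07), and its value in WT was -0.25 ± 0.15 (adjusted p = 0.18). The difference of W330R from WT in this change was called for 0 members with edgeR and with DESeq2, beside 3.88% of all genes, and 0 had an unadjusted p under 0.05.

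Relatives of the families outside the symbol rule were read as a list of 10, of which 9 were measured and 7 tested. Lef1, a high mobility group factor of WNT signalling, was the 1 called gene of the 7 tested between W330R and WT over days 2 to 6, beside 29.0% of all genes. It held 26.1 and 54.996 CPM on day 2, 11.3 and 19.6 on day 4, and 5.50 and 5.83 on day 6 in WT. It held 6.25 and 9.14 CPM on day 2, 4.64 and 3.74 on day 4, and 2.14 and 2.79 on day 6 in W330R, and 12.1 and 40.7 CPM on day 2, 6.08 and 15.1 on day 4, and 5.90 and 7.37 on day 6 in the double mutant. W330R was below WT on every day with no overlap, and the log2 fold change was -1.83 ± 0.31 against WT (adjusted p = 0.00076) and 1.52 ± 0.31 for the double mutant against W330R (adjusted p = 0.0041). Tcf7l2, Tcf7l1 and Mga had the highest levels of the list, with log2 fold changes of 0.35 ± 0.36, 0.35 ± 0.17 and 0.04 ± 0.09 for W330R against WT, none called.

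Markers of the cell state moved with the genotypes as well. Of 8 adipocyte genes, 7 were lower in W330R than in WT over days 2 to 6 and 0 higher (list median -1.24 on the log2 scale), beside 29.0% of all genes called. For the double mutant against W330R 4 were higher and 1 lower, beside 17.2%, and against WT the double mutant still had 4 lower (Cd36, Cidec, Plin1 and Cebpa) and 0 higher, with a list median of -0.89, beside 9.57%. The 4 adipocyte markers among them were all lower in W330R, and 2 of them, Adipoq and Cidec, were higher for the double mutant against W330R. Adipoq, the adipokine gene, stood at 753 and 1296 CPM in WT on day 6, at 272 and 299 CPM in W330R and at 339 and 453 CPM in the double mutant. Of the 7 mesenchymal markers, 5 were higher in W330R than in WT and 0 lower, and for the double mutant against W330R 0 were higher and 4 lower, beside the same 29.0% and 17.2%. Against WT, 0 were called in the double mutant. Pdgfra and Pdgfrb, growth factor receptors of mesenchymal cells, had log2 fold changes of 0.95 ± 0.16 and 0.92 ± 0.13 for W330R against WT and -1.04 ± 0.16 and -1.19 ± 0.13 for the double mutant against W330R. These have the same signs as the values of Sox4, Sox12, Tbx3 and Tbx18, and their part in those was not tested.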

How the data were processed

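RNA-seq of 22 libraries was analysed. The authors deposited whole-number estimated counts per gene. The submitters' processing notes name kallisto (its version is not given in the sources used here), DESeq2 1.40 and GRCm39, and whether the counting used strand is likewise not given. The deposited counts were read as they stand. CPM were computed with edgeR 4.0.16 (R 4.3.3) on TMM-scaled totals, and edgeR's quasi-likelihood test with 1 mean per condition was run on 14520 genes passing filterByExpr (minimum count 10, minimum total 15), with Benjamini-Hochberg adjustment at 0.05 in each of 12 contrasts. Errors are standard errors of the log2 fold change. The fit was tested on simulated data. Alternatives were DESeq2 1.42.0, RLE scaling, no filter, only the conditions of a contrast, a replicate block and leaving out each library, and, chosen after the data were seen, fits within one replicate number. By the rule for named genes, members at 1 CPM or more are described, members called in a contrast get a fold change, members called between genotypes and the 3 with the highest mean get the value of every library, and lists give their 4 highest genes. Further names were chosen after their values were seen. Members and lists were chosen with earlier results of these data known. Promoters are RefSeq windows on GRCm38.p6, and exon lengths are GENCODE vM21. Figures were drawn with matplotlib 3.10.9. The result of a single gene among the cell type markers is not reported here.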

Additional observations from a re-analysis of the deposited data

How the results depend on the processing

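In all, 38 fold changes of called members were recomputed under 27 alternatives. Of these 1026 values, 908 kept direction and call, 118 kept direction but lost the call, and 0 reversed. The fit of only the conditions in a contrast called 3 members in undifferentiated cells (0 in the fit of all libraries), 0 for the double mutant against WT (2), 0, 2 and 0 from day 2 to day 6 in WT (1), W330R (4) and the double mutant (2), and 9 from undifferentiated to day 6 in W330R (5). DESeq2 called 4 for the double mutant against WT and 2 from day 2 to day 6 in WT, RLE scaling called 2 in the latter, and no filter left 2 from day 2 to day 6 in W330R. Fits within replicate number 1 called 6 for the double mutant against WT. Leaving out one library gave 1 to 5 members for the double mutant against WT (5 without double mutant day 2 replicate 2), 1 to 2 from day 2 to day 6 in WT (2 without WT day 4 replicate 1) and 2 to 4 in W330R (2 without W330R day 6 replicate 2), and from undifferentiated to day 6 gave 3 to 6 in WT (3 without undifferentiated WT replicate 1) and 2 to 7 in W330R (2 without undifferentiated W330R replicate 2, 3 without its replicate 1 or either day 6 library). The count of 1 for the double mutant against WT came without any one of 10 libraries: the 4 undifferentiated ones, WT replicate 2 or double mutant replicate 1 of any day. No share of all genes called is given here beside these counts, so a move of the members cannot be told apart from a move of the whole table. The cause was not tested.

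The labels give replicate numbers without saying what they share. Within days 2 to 6, deviations of same-numbered libraries correlated above 0.1 in 27 of 36 pairs of conditions (mean r 0.215, from -0.021 to 0.534), so libraries of one number deviated together in most of these pairs. Of the 19 pairs with an undifferentiated condition, 0 were above 0.1. Since not every pair was above 0.1 and no label says what a number marks, the numbers were not taken as a pairing. With the replicate block the members called were 7, 0, 8, 8 and 3 in the genotype comparisons (4 stages, undifferentiated, W330R against WT, double mutant against W330R, double mutant against WT), 2, 4 and 2 from day 2 to day 6, 5 and 7 from undifferentiated to day 6, and 0 in both differences of change. These counts too have no share of all genes beside them, so they do not show a change particular to the members. With 2 libraries per condition and 3 counts as the floor, changes of members under 1 CPM were not detectable at this depth unless large.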
